A study of Anas platyrhynchos with 11 samples.

Results

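Wnt ligands, their receptors, the R-spondin system, secreted Wnt inhibitors, Axins and TCF/LEF factors were compared between Meissner corpuscles and bill skin of the duck (Anas platyrhynchos). Members were all genes whose symbols begin with WNT, FZD, DKK, SFRP or RSPO followed by a number, or with TCF7, plus LRP5, LRP6, ROR1, ROR2, LGR4 to LGR6, AXIN1, AXIN2 and LEF1. The rule found 52 of the 16823 genes in the table, comprising 18 WNT ligands, 10 Frizzled receptors, 4 co-receptors, 4 R-spondins, 3 LGR receptors, 7 secreted inhibitors, 2 Axins and 4 TCF/LEF factors. RNA came from 5 pools of hand-aspirated Meissner corpuscles, with 2 to 10 corpuscles per sample, and from 6 samples of nearby bill skin that held no corpuscles. A Meissner corpuscle is a touch end organ in which lamellar cells surround the ending of a sensory axon. The labels used here name no treatment, genotype, breed, sex or age for either tissue. Each tissue had its own library kit, a low-input kit for corpuscles and a standard kit for skin, and effects of the kit and of the tissue cannot be told apart.

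Wnt proteins are secreted, lipid-modified signals that bind Frizzled receptors. Together with LRP5 or LRP6 they stabilise beta-catenin, which then acts with TCF/LEF factors on target genes, whereas ligands such as WNT5A can act through ROR receptors without beta-catenin. R-spondins bind LGR receptors and keep Frizzleds at the cell surface, DKK proteins can block LRP5 and LRP6, and SFRP proteins bind Wnts outside the cell. In bird and mammal skin Wnt signalling is known for the formation of feathers, hair and dermis.

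Total counts were 5766279 in corpuscle 4, 11241654 to 11886808 in the other corpuscle libraries and 13263776 to 20925841 in skin libraries. The labels give RNA integrity numbers of 6.1 to 8.0 for corpuscle samples and none for skin. Merkel cells are touch-sensing neuroendocrine cells of skin. Their markers were higher in corpuscles in 8 of 9 genes, with summed levels of 14580 to 79440 CPM (read counts scaled to library size) in corpuscles and 1209 to 2481 CPM in skin. Of 6 Schwann cell markers tested 3 fell and 3 did not pass, SOX10 averaged 241 CPM in corpuscles against 153 CPM in skin, and S100B was at 0 in all 11 libraries. The 3 keratinocyte markers analysed summed to 14.8 to 40.9 CPM in corpuscles against 127 to 414 CPM in skin, and 8 of vascular muscle and pericytes to 170.5 to 359.9 CPM in corpuscles against 653 to 953 CPM in skin. In bulk samples, fewer cells of a type and less RNA per cell cannot be told apart. Corpuscles 4 and 5 stood apart from corpuscles 1 to 3 on the second principal component (12.5% of variance, with scores of -124 and -35.5 against 53.2 to 59.5). On that component skin 5 and 6 scored -15.1 and -19.3, and skin 1 to 4 scored 2.61 to 10.8.

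Of the 52 members, 50 passed the filter on low counts and 28 of these (56.0%) differed between corpuscles and skin at an adjusted p of 0.05, against 56.4% of all 14638 genes tested. The members' share is near that background. Called higher in corpuscles were 10 members (20.0%), against 33.0% of all genes, and called lower were 18 (36.0%), against 23.5%. With upper-quartile scaling, which raised the median of all genes by 0.15 on the log2 scale, 15 members were higher and 16 lower. Of all genes 5227 were then higher and 2972 lower, with 63.8% of calls higher, against 58.4% in the main fit. With DESeq2 14 members were higher and 18 lower, beside 5210 and 3548 of all genes (59.5% of calls higher). With limma-voom 9 members were higher and 15 lower, beside 4317 and 3888 of all genes (52.6% of calls higher). Groups did not overlap in 22 members (44.0%), against 41.3% of all genes. Of these 8 were higher (16.0%, against 22.2% of all genes) and 14 lower (28.0%, against 19.1%). The median log2 fold change, corpuscle over skin, was -0.04 over the members and 0.18 over all genes. The 2 members that failed the filter, WNT8A (75 reads in all corpuscles, 19 in all skin) and DKK1 (43 reads and 11 reads), were not tested.

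**Figure D1:**
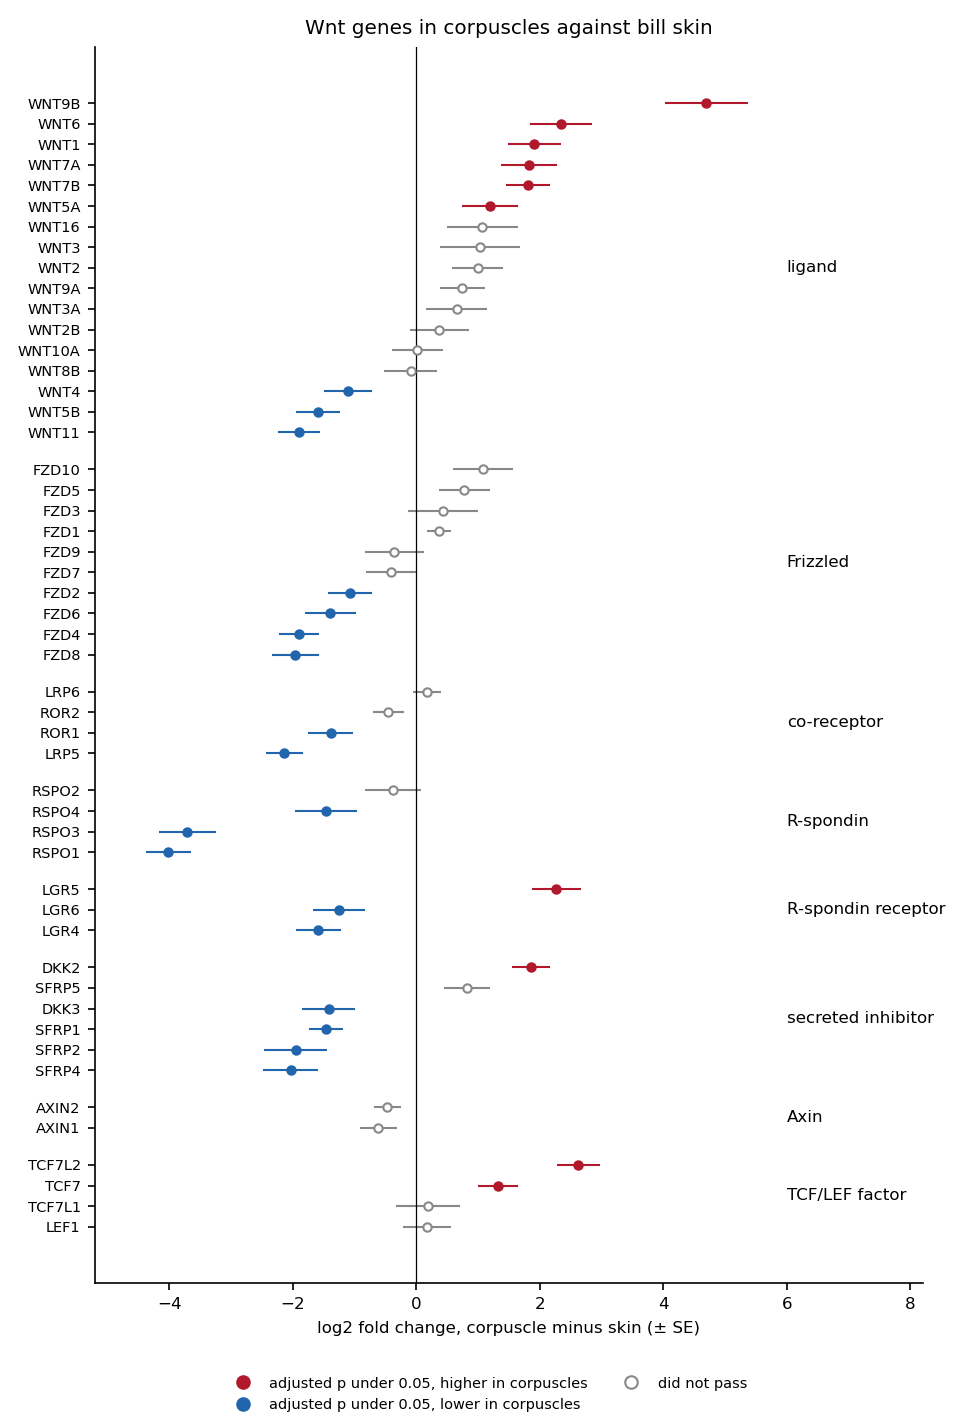
Log2 fold changes, corpuscle over skin, of the 50 Wnt members tested, grouped by role, with bars of ± 1 SE from edgeR's quasi-likelihood fit and colours for genes called higher, called lower or not called. RSPO3 (-3.71) and RSPO1 (-4.02) hold the lowest values, and TCF7L2 (2.62), LGR5 (2.27) and DKK2 (1.86) lie to the right of 0.

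Among ligands, WNT5A had the highest mean per length in both tissues. In skin it averaged 62.1 ± 10.2 FPKM and WNT11, the next most abundant ligand there, 56.1 ± 11.8 FPKM. WNT11 was the higher of the pair in skin 5 and 6. Corpuscles held less WNT11 and less WNT5B. Of 17 ligands tested 6 rose (35.3%, against 33.0% of all genes), 3 fell (17.6%, against 23.5%) and 8 did not pass. All but WNT5A of those that rose were rare, at no more than 3.23 FPKM (read counts per length of the gene and per library total, the authors' values).

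WNT5A acts in cell movement and polarity and can signal through ROR2 and Frizzleds. It measured 248, 219.9, 172, 919.5 and 1388 CPM in corpuscles 1 to 5, against a lowest, median and highest of 219.6, 248 and 333 CPM in skin. Corpuscles 4 and 5 lay far above every skin library, while corpuscles 1 to 3 lay within or below the skin range. The means were 589.5 ± 542 CPM in corpuscles (SD, n = 5) and 259.6 ± 42.7 CPM in skin (n = 6), a log2 fold change of 1.19 ± 0.45 (SE, adjusted p = 0.036, edgeR's quasi-likelihood test). This call rested on corpuscles 4 and 5. Fits here and below that leave out or keep only corpuscles 4 and 5 and skin 5 and 6 follow a split seen in these same data. Their p-values are therefore descriptive. Skin 5 and 6 were also the most alike pair of skin libraries (chi-square per degree of freedom 11.6). Corpuscles 4 and 5 were at 113.9, against 90.5 to 112 among corpuscles 1 to 3. Against corpuscles 1 to 3, corpuscle 4 was at 155.6 to 193.5 and corpuscle 5 at 115.6 to 187.5. These values also depend on read depth, and corpuscle 4 had the fewest reads. Without corpuscles 4 and 5 and skin 5 and 6 the log2 fold change was -0.37 (adjusted p = 0.148), and within those 4 libraries alone it was 2.42 (adjusted p = 0.0182). It was 0.97 (adjusted p = 0.0987) without corpuscle 4 and 0.59 (adjusted p = 0.218) without corpuscle 5, and leaving out any of skin 2 to 6 gave adjusted p-values of 0.0531 to 0.063. Beside it, summed fibroblast markers were 45020 and 41000 CPM in corpuscles 4 and 5 and 13710 to 26470 CPM in corpuscles 1 to 3, against 49740 to 81130 CPM in skin. The part of those cells in the WNT5A level was not tested.

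WNT11, a ligand of morphogenetic movement, measured 98.1, 75.4, 105, 87.8 and 19.0 CPM in corpuscles, against 218, 287 and 356 CPM (lowest, median, highest) in skin. All corpuscle libraries were below all skin libraries, and corpuscle 5 was the lowest. WNT11 fell by 1.90 ± 0.35 on the log2 scale (adjusted p = 0.000267). WNT5B, a close relative of WNT5A, measured 28.0, 22.0, 6.39, 21.9 and 38.9 CPM in corpuscles against 63.9, 70.6 and 77.9 CPM in skin. The groups again did not overlap, and the log2 fold change was -1.59 ± 0.36 (adjusted p = 0.00149).

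As a share of the summed FPKM of all 18 WNT genes, WNT5A made up 60.4 ± 16.2% in corpuscles and 36.7 ± 6.11% in skin, and WNT11 made up 11.9 ± 8.56% in corpuscles and 32.8 ± 4.74% in skin. The summed WNT level itself was 192.5 ± 133 FPKM in corpuscles and 170.0 ± 15.1 FPKM in skin. It reached 275 and 388 FPKM in corpuscles 4 and 5 and stayed at 87.9 to 110 FPKM in corpuscles 1 to 3, below each skin library (147 to 188 FPKM).

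WNT7B, an epithelial and neuronal ligand in mice, was the only other ligand to rise among those at 10 CPM or more. It measured 22.0, 12.0, 9.82, 12.9 and 11.3 CPM in corpuscles against 2.79, 3.42 and 6.17 CPM in skin, so that every corpuscle library exceeded every skin library. Its log2 fold change was 1.81 ± 0.35 (adjusted p = 0.000459). Below 10 CPM, WNT9B (log2 fold change 4.70 ± 0.67, 154 reads in all corpuscles and 12 in all skin), WNT6 (2.34 ± 0.50), WNT1 (1.91 ± 0.44) and WNT7A (1.82 ± 0.45) were also called higher, at 0.541 to 3.23 FPKM in corpuscles and 0.0272 to 0.671 FPKM in skin. Beside these low levels, 25 of 30 tested genes typical of germ cells, pituitary, retina or liver were called higher in corpuscles too, with a median log2 fold change of 3.24. Some of them, such as CNGA1 (172 reads in all corpuscles, 1 in all skin) and DAZL (122 and 1), passed the filter only through corpuscle libraries, as did WNT9B. For such genes the filter fixed the direction, so the count of 25 and its median lean to corpuscles. WNT7A, at 10 to 40 reads in each skin library, would not have passed the filter on skin libraries alone. WNT9B and WNT7A are both in the counts of ligands and members called higher, and in the count of higher members without overlap. The 95th percentile of 39 such genes was 6.16 FPKM in corpuscles and 3.12 FPKM in skin, and WNT7B, WNT9B, WNT6, WNT1 and WNT7A all lay under it in corpuscles. Whether these ligands come from the corpuscles was not tested.

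Of the ligands that did not pass, WNT9A, a ligand of joint formation, was the most abundant at 124 ± 84.7 CPM in corpuscles against 74.4 ± 13.5 CPM in skin (0.74 ± 0.37 on the log2 scale, adjusted p = 0.0966). Its corpuscle values of 76.5, 52.9, 61.6, 194 and 236 CPM had the shape of those of WNT5A, with corpuscles 4 and 5 above the skin maximum of 87.7 CPM. WNT2B measured 12.1, 32.2, 14.4, 10.4 and 40.1 CPM in corpuscles against 6.76 to 30.0 CPM in skin (0.37 ± 0.48, adjusted p = 0.531). WNT4, a ligand of kidney and gonad development, was lower at 1.43 ± 0.41 CPM in corpuscles against 3.07 ± 1.06 CPM in skin (-1.11 ± 0.40, adjusted p = 0.0261), but without corpuscle 2, skin 2 or skin 6 its adjusted p was 0.0504, 0.0631 or 0.0654. At 0.919 FPKM in corpuscles and 2.08 FPKM in skin, WNT4 lay under the 95th percentile given for genes typical of other organs in both tissues. The other 6 had log2 fold changes of 1.07 (WNT16), 1.03 (WNT3), 1.00 (WNT2), 0.66 (WNT3A), 0.02 (WNT10A) and -0.09 (WNT8B), with adjusted p-values of 0.0527 to 0.974.

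**Figure D2:**
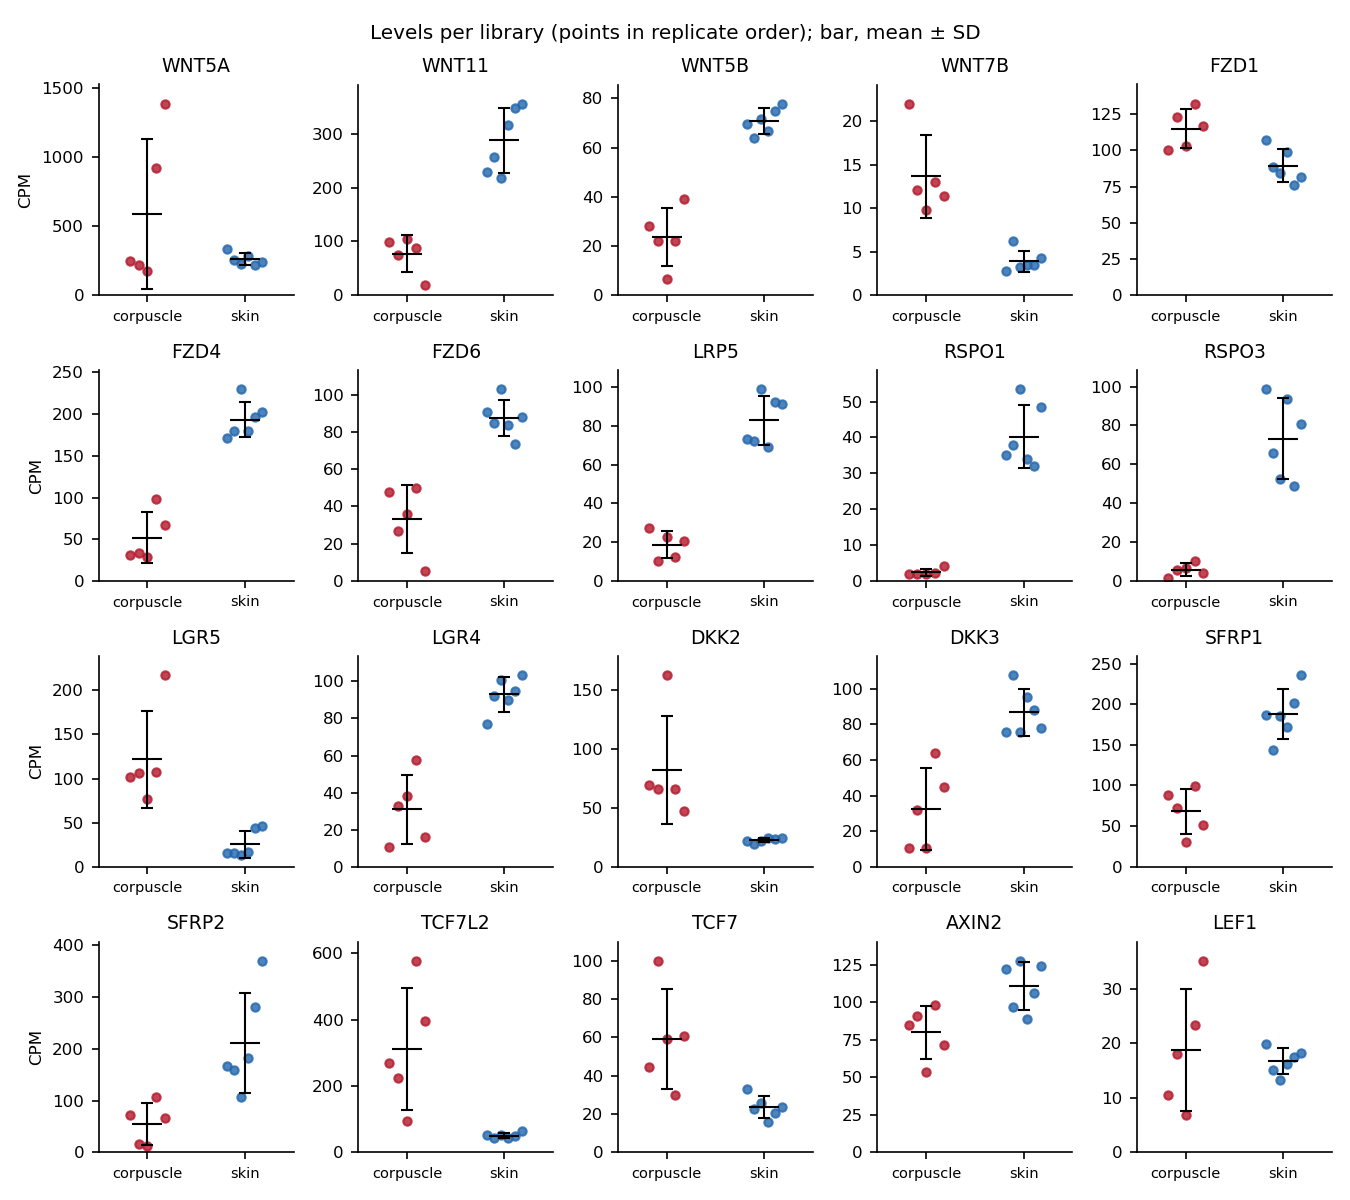
Levels in CPM on linear axes from 0 of 20 Wnt members in each library, 5 corpuscle libraries left of 6 skin libraries, with the mean and SD of each tissue. WNT5A reaches 919.5 and 1388 CPM in corpuscles 4 and 5, whereas RSPO1 stays at or under 4.22 CPM in all corpuscles and at or over 32.0 CPM in all skin.

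Of 10 Frizzled receptors tested 4 fell in corpuscles (FZD2, FZD4, FZD6 and FZD8), or 40%, against 23.5% of all genes. The other 6 did not pass edgeR's quasi-likelihood test. That test called 0 higher, and 1 (FZD10) was above skin at an unadjusted threshold of 0.05. DESeq2 called FZD1 and FZD10 higher (adjusted p = 0.0306 and 0.0317). The summed Frizzled level was 77.7 ± 18.7 FPKM in corpuscles and 135 ± 8.55 FPKM in skin. FZD1 was the most abundant Frizzled of corpuscles and FZD4 that of skin.

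FZD4, the Frizzled that also binds norrin in blood vessels, measured 31.2, 33.7, 28.2, 98.2 and 67.2 CPM in corpuscles against 172, 188 and 229.7 CPM in skin. No corpuscle library reached the skin range, and corpuscle 4 came closest. FZD4 fell by 1.90 ± 0.32 on the log2 scale (adjusted p = 0.000137), by 2.63 without corpuscles 4 and 5 and skin 5 and 6 and by 1.23 within them. Endothelial markers, of which 9 of 10 fell, summed to 74.1 to 139 CPM in corpuscles against 1205 to 1640 CPM in skin, and their part in the FZD4 level was not tested.

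FZD6, a receptor of planar cell polarity and hair patterning in mice, measured 47.9, 27.0, 35.8, 49.9 and 5.21 CPM in corpuscles against 73.7, 86.5 and 103 CPM in skin, without overlap (-1.40 ± 0.41, adjusted p = 0.00935). FZD8 measured 1.86, 2.92, 4.63, 7.58 and 4.32 CPM in corpuscles against 12.6, 16.9 and 19.5 CPM in skin, also without overlap (-1.96 ± 0.38, adjusted p = 0.00048). FZD2, a receptor for WNT5A among other ligands, measured 18.1, 24.3, 15.9, 69.0 and 31.6 CPM in corpuscles against 50.9, 68.7 and 79.0 CPM in skin. Corpuscle 4 alone lay within the skin range, and the log2 fold change was -1.08 ± 0.36 (adjusted p = 0.0186). The FZD2 call was lost with upper-quartile scaling (adjusted p = 0.0601) and with a filter at 5 CPM (adjusted p = 0.0519).

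FZD1 was the steadiest member across corpuscles, at 100, 123, 103, 132 and 117 CPM, with 75.8, 86.5 and 107 CPM in skin. Corpuscles 2, 4 and 5 lay above the highest skin library, and the difference did not pass (0.37 ± 0.19, adjusted p = 0.113). Its coefficient of variation was 11.7% in corpuscles and 12.9% in skin. FZD1 held 35.2 ± 5.94% of the summed Frizzled FPKM in corpuscles and 16.2 ± 2.50% in skin, whereas FZD4 held 12.8 ± 5.85% in corpuscles and 29.8 ± 2.24% in skin.

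FZD3, a polarity receptor needed for axon growth in mice, measured 105, 74.0, 56.6, 14.7 and 3.42 CPM in corpuscles against 30.5, 36.5 and 46.5 CPM in skin. Corpuscles 1 to 3 lay above every skin library and corpuscles 4 and 5 below every skin library, and the mean difference of 0.43 ± 0.57 did not pass (adjusted p = 0.539). Without corpuscles 4 and 5 and skin 5 and 6 it was 0.95 (adjusted p = 0.0151), and within them it was -1.87 (adjusted p = 0.119). The remaining Frizzleds that did not pass were FZD10 (1.08), FZD5 (0.78), FZD9 (-0.35) and FZD7 (-0.42), with adjusted p-values of 0.0697 to 0.556.

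**Figure D3:**
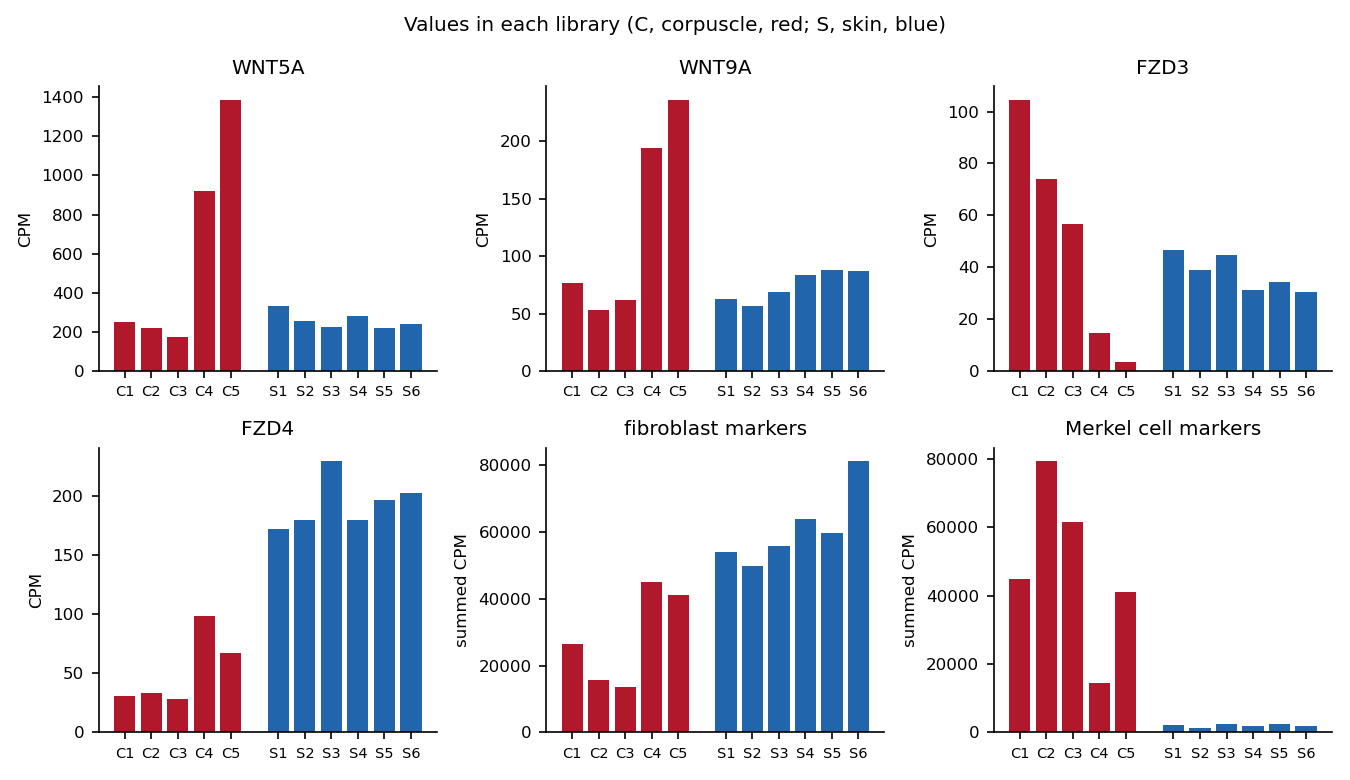
Levels in each of the 5 corpuscle libraries and, to their right, the 6 skin libraries, as bars from 0 in CPM, for WNT5A, WNT9A, FZD3, FZD4 and the summed fibroblast and Merkel cell markers. Corpuscles 4 and 5 have the highest WNT5A and WNT9A and the lowest FZD3 (14.7 and 3.42 CPM), together with the highest fibroblast sums among corpuscles (45020 and 41000 CPM).

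Among co-receptors, LRP5 and ROR1 fell (50%, against 23.5% of all genes) while LRP6 and ROR2 did not pass. LRP5, which pairs with Frizzleds in beta-catenin signalling, measured 27.5, 10.4, 22.9, 12.5 and 20.4 CPM in corpuscles against 69.0, 82.2 and 98.8 CPM in skin. The groups were well separated, and the log2 fold change was -2.14 ± 0.30 (adjusted p = 2.57e-05). LRP6, its paralog with the same known role, measured 186, 193, 129, 122 and 303 CPM in corpuscles against 153, 163 and 187 CPM in skin. Its groups overlapped and the log2 fold change was 0.17 ± 0.23 (adjusted p = 0.54). Per length, LRP5 averaged 2.06 FPKM in corpuscles and 9.53 FPKM in skin, and LRP6 averaged 16.6 FPKM in corpuscles and 15.5 FPKM in skin.

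ROR1, a receptor tyrosine kinase for Wnts, measured 43.8, 33.4, 36.0, 7.89 and 58.8 CPM in corpuscles against 81.7, 94.9 and 105 CPM in skin. It was lower in every corpuscle library than in any skin library (-1.39 ± 0.37, adjusted p = 0.00462) and lowest in corpuscle 4. ROR2, its paralog and a receptor for WNT5A, averaged 39.5 ± 10.9 CPM in corpuscles against 54.3 ± 8.25 CPM in skin (-0.45 ± 0.25, adjusted p = 0.14).

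Of the 4 R-spondins 3 fell (75%, against 23.5% of all genes), and their median on the log2 scale (-2.59) was below that of every other role. RSPO1 measured 1.86, 1.98, 2.04, 2.21 and 4.22 CPM in corpuscles against 32.0, 36.5 and 53.4 CPM in skin. The lowest skin library held 7.58 times the highest corpuscle library, and the log2 fold change was -4.02 ± 0.36 (adjusted p = 6.79e-07). RSPO3, which also acts in blood vessel growth, measured 1.33, 5.64, 6.67, 10.4 and 4.14 CPM in corpuscles against 48.6, 73.1 and 98.5 CPM in skin. There too the groups were far apart (-3.71 ± 0.46, adjusted p = 8.76e-06). The fitted differences correspond to levels 16.2-fold (RSPO1) and 13.1-fold (RSPO3) lower in corpuscles. In corpuscles RSPO1 (0.889 FPKM), RSPO2 (0.862 FPKM), RSPO3 (0.788 FPKM) and RSPO4 (1.83 FPKM) all lay under the 6.16 FPKM given for genes typical of other organs. Whether these low levels come from the corpuscles was not tested.

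RSPO4, known for nail formation in humans, was the most abundant R-spondin of corpuscles per length, at only 1.83 ± 1.09 FPKM, against 5.29 FPKM in skin. It measured 1.15, 2.54, 1.11, 4.42 and 1.89 CPM in corpuscles against 1.95, 5.97 and 10.9 CPM in skin, and corpuscles 2 and 4 lay within the skin range. Its log2 fold change was -1.46 ± 0.50 (adjusted p = 0.0209), with an adjusted p of 0.0583 without skin 3. RSPO2 averaged 8.08 ± 5.06 CPM in corpuscles against 10.5 ± 2.58 CPM in skin (-0.38 ± 0.45, adjusted p = 0.501).

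All 3 LGR receptors were called, LGR5 higher (33.3%, against 33.0% of all genes) and LGR4 and LGR6 lower (66.7%, against 23.5%). LGR5, a receptor for R-spondins and a marker of stem cells in mouse gut and hair follicle, measured 101, 106, 77.2, 107 and 217 CPM in corpuscles against 13.2, 16.5 and 45.7 CPM in skin. Every corpuscle library lay above every skin library. Within skin, skin 5 and 6 were at 44.1 and 45.7 CPM and the other 4 libraries at 13.2 to 17.1 CPM. LGR5 rose by 2.27 ± 0.40 on the log2 scale (adjusted p = 0.0002), by 2.60 without corpuscles 4 and 5 and skin 5 and 6 and by 1.97 within them (adjusted p = 0.0497).

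LGR4, its more broadly expressed relative, measured 10.5, 32.6, 38.1, 57.5 and 16.1 CPM in corpuscles against 76.8, 93.6 and 103 CPM in skin, without overlap (-1.59 ± 0.37, adjusted p = 0.00189). LGR6 measured 8.43, 3.95, 2.96, 10.9 and 3.96 CPM in corpuscles against 9.25, 13.0 and 23.3 CPM in skin. Corpuscle 4 overlapped skin, and the log2 fold change of -1.25 ± 0.42 (adjusted p = 0.0191) had an adjusted p of 0.0551 without skin 6. Summed over the 3 receptors the level was 27.5 ± 7.97 FPKM in corpuscles and 26.7 ± 5.04 FPKM in skin. LGR5 made up 72.1 ± 13.7% of that sum in corpuscles and 15.7 ± 6.66% in skin, and LGR4 made up 22.8 ± 13.4% in corpuscles and 72.1 ± 8.03% in skin.

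**Figure D4:**
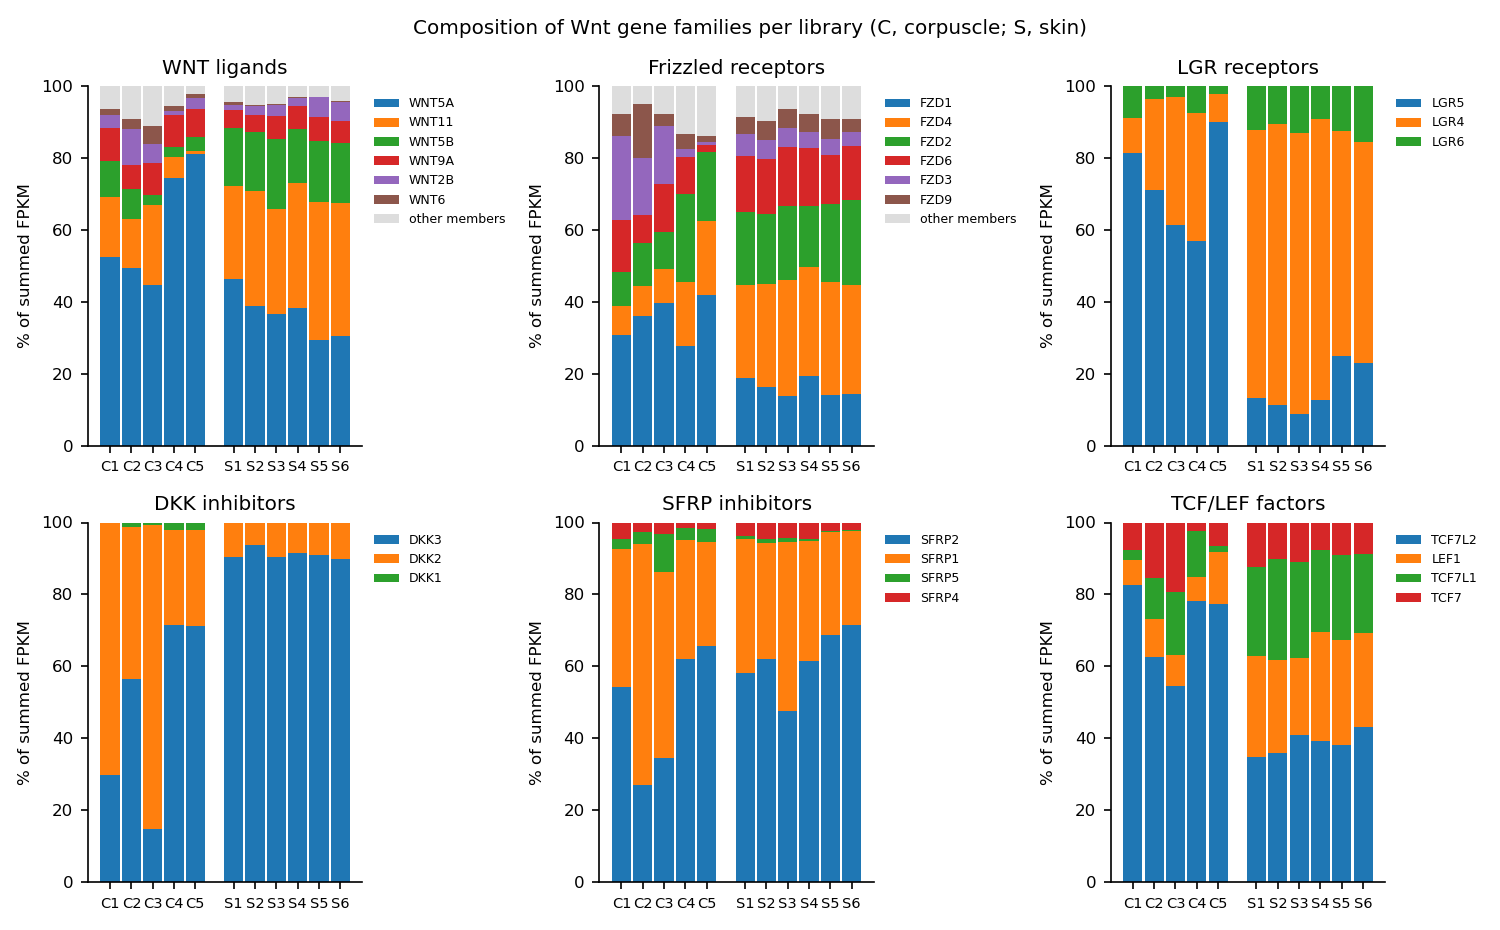
Stacked shares, in percent of the summed FPKM of each family in each library, for WNT, FZD, LGR, DKK, SFRP and TCF/LEF genes, with corpuscles 1 to 5 (C1 to C5) left of skin 1 to 6 (S1 to S6). LGR5 fills 56.8 to 90.1% of the LGR bar in corpuscles and 8.78 to 24.9% in skin, and TCF7L2 averages 71.1% of the TCF/LEF bar in corpuscles and 38.7% in skin.

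Of the secreted inhibitors DKK2 rose, DKK3, SFRP1, SFRP2 and SFRP4 fell, and SFRP5 did not pass. Of those tested 16.7% were higher and 66.7% lower, against 33.0% and 23.5% of all genes. DKK2, which binds LRP5 and LRP6, measured 69.3, 66.5, 163, 65.8 and 46.9 CPM in corpuscles against 19.4, 23.0 and 24.6 CPM in skin. All corpuscle libraries were above all skin libraries, with corpuscle 3 the highest, and the log2 fold change was 1.86 ± 0.31 (adjusted p = 0.000124). It was 1.26 (adjusted p = 0.0731) within corpuscles 4 and 5 and skin 5 and 6.

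DKK3, a divergent family member not known to block LRP6 as its relatives do, measured 10.6, 31.9, 10.4, 63.9 and 45.0 CPM in corpuscles against 75.5, 83.1 and 108 CPM in skin. No library overlapped (-1.42 ± 0.42, adjusted p = 0.01), and corpuscles 4 and 5 came nearest to skin. The log2 fold change was -2.34 without corpuscles 4 and 5 and skin 5 and 6 and -0.57 within them (adjusted p = 0.294). DKK3 held 48.8 ± 25.4% of the summed DKK FPKM in corpuscles and 91.1 ± 1.43% in skin, and DKK2 held 50.0 ± 26.2% in corpuscles and 8.76 ± 1.43% in skin.

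SFRP2, a product of dermal fibroblasts in mammals, had the highest mean per length of the secreted inhibitors among members in both tissues. Its mean was 20.3 ± 14.7 FPKM in corpuscles and 82.7 ± 37.6 FPKM in skin. In corpuscles DKK3 was close to it at 20.1 FPKM, and SFRP2 led these inhibitors in corpuscle 1 only. WIF1, a secreted antagonist outside the members, was higher, at 396.3 FPKM in corpuscles and 181.5 FPKM in skin. SFRP2 measured 71.5, 16.7, 11.7, 107 and 66.0 CPM in corpuscles against 107, 174 and 369 CPM in skin. Corpuscle 4 (106.7 CPM) lay just under the lowest skin library (skin 3, 107.2 CPM), and the log2 fold change was -1.95 ± 0.51 (adjusted p = 0.00435). SFRP1 measured 88.1, 72.1, 30.6, 99.2 and 50.7 CPM in corpuscles against 144, 186 and 236 CPM in skin, without overlap (-1.46 ± 0.28, adjusted p = 0.000423). Beside both, 7 of 10 fibroblast markers fell and the other 3 did not pass, and their part in these levels was not tested.

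SFRP4 was lower at 2.38 ± 1.79 CPM in corpuscles against 9.78 ± 1.25 CPM in skin (-2.03 ± 0.45, adjusted p = 0.00124), and its log2 fold change was -2.63 without corpuscle 1, at 5.41 CPM the highest corpuscle library. SFRP5 averaged 3.84 ± 1.34 CPM in corpuscles against 2.16 ± 0.496 CPM in skin (0.82 ± 0.37, adjusted p = 0.0685). The summed SFRP level was 37.1 ± 20.1 FPKM in corpuscles and 129.9 ± 43.0 FPKM in skin, and the summed DKK level was 39.1 ± 11.7 FPKM in corpuscles and 62.4 ± 8.38 FPKM in skin.

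Of the Axins and the TCF/LEF factors, the Axins did not pass the test and TCF7L2 and TCF7 rose. The latter were 50% of the TCF/LEF factors, against 33.0% of all genes called higher. AXIN2, a scaffold that brings about beta-catenin breakdown and is itself a widely used target gene of the pathway, measured 85.0, 90.7, 53.7, 98.4 and 71.2 CPM in corpuscles against 88.8, 114 and 127 CPM in skin. Corpuscles 2 and 4 lay within the skin range and the others below it (-0.47 ± 0.22, adjusted p = 0.0765). AXIN2 did pass with a negative sign with no filter on low counts (adjusted p = 0.0426), and the authors' deposited table calls it. AXIN1 had a log2 fold change of -0.62 ± 0.30 (adjusted p = 0.0919).

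TCF7L2, also called TCF4, is a DNA-binding partner of beta-catenin and acts in oligodendrocyte maturation in mice. It measured 268, 224, 93.5, 577 and 396 CPM in corpuscles against 44.0, 49.8 and 63.9 CPM in skin. The lowest corpuscle library exceeded the highest skin library, and the log2 fold change of 2.62 ± 0.35 (adjusted p = 1.62e-05) was the largest increase among members at 10 CPM or more. It was 2.01 without corpuscles 4 and 5 and skin 5 and 6 and 3.16 within them.

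TCF7, a factor best known from T cells, measured 44.6, 99.9, 59.3, 30.0 and 60.7 CPM in corpuscles against 15.6, 23.1 and 32.9 CPM in skin. Corpuscle 4 lay within the skin range, and the log2 fold change was 1.33 ± 0.32 (adjusted p = 0.00252). At 6.22 FPKM in corpuscles and 2.61 FPKM in skin, TCF7 lay just above the 95th percentile given for genes typical of other organs in corpuscles. LEF1 averaged 18.8 ± 11.2 CPM in corpuscles against 16.7 ± 2.35 CPM in skin (0.17 ± 0.39, adjusted p = 0.729), and TCF7L1 averaged 20.3 ± 19.6 CPM in corpuscles against 17.8 ± 2.21 CPM in skin (0.19 ± 0.52, adjusted p = 0.776).

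Other genes of the pathway were taken from lists of 105 genes, of which 89 could be tested. Of these 23 rose (25.8%, against 33.0% of all genes), 27 fell (30.3%, against 23.5%) and 39 did not pass. The median log2 fold change was -0.14 and 56.2% were called, near the share over all genes. Of those that rose, 7 lay at 0.953 to 3.41 FPKM in corpuscles, under the 6.16 FPKM given for genes typical of other organs. These were CER1, GPC6, RNF43, HNF4A, CAMK2A, SALL4 and SP5, of which CER1 and SP5 alone reached 10 CPM and the others are named after their values were seen. Among 20 genes of Wnt secretion and the extracellular space 5 rose (25%, against 33.0% of all genes) and 9 fell (45%, against 23.5%). WLS, which carries Wnt proteins to the cell surface, averaged 14.7 ± 8.56 CPM in corpuscles against 148 ± 27.1 CPM in skin (-3.32 ± 0.37, adjusted p = 4.14e-06). ADGRA2, a receptor for vascular Wnt7 signals (-3.14 ± 0.33), and PTK7, a polarity co-receptor (-2.28 ± 0.33), fell as well. The secreted antagonists CER1 (2.53 ± 0.65), SOSTDC1 (1.90 ± 0.45) and WIF1 (1.21 ± 0.40) rose. Secreted antagonists of this list went both ways. Named after their values were seen, FRZB (-1.03 ± 0.20) and NOTUM (-1.10 ± 0.35) fell, and SOST did not pass (1.18 ± 0.72). WIF1 averaged 793.5 ± 579 CPM in corpuscles against 343 ± 103 CPM in skin and its call was lost without corpuscle 4 (adjusted p = 0.0696) and without corpuscle 5 (adjusted p = 0.0654). CER1 was at 1.75 without corpuscle 4 and SOSTDC1 at 1.26 without corpuscle 1.

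Among 23 genes of the destruction complex and the dishevelled step 4 rose (17.4%, against 33.0% of all genes) and 8 fell (34.8%, against 23.5%). CSNK1E, a kinase that acts on dishevelled and LRP6, averaged 178 ± 50.1 CPM in corpuscles against 32.0 ± 4.01 CPM in skin (2.48 ± 0.23, adjusted p = 8.43e-07). CXXC5 (2.28 ± 0.29) and NKD1 (1.25 ± 0.19), both inhibitors that bind dishevelled, rose. CSNK1A1, the kinase that primes beta-catenin for breakdown (-1.56 ± 0.22), TNKS, which destabilises Axins (-1.79 ± 0.21), and CSNK1G2 (-1.66 ± 0.36) fell. Named after its values were seen, CTNNB1, which encodes beta-catenin, was lower at 388 ± 171 CPM in corpuscles against 676 ± 58.6 CPM in skin (-0.80 ± 0.26, adjusted p = 0.0163). GSK3B rose (0.82 ± 0.20) and APC fell (-0.62 ± 0.24), both also named after their values were seen.

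Of 15 nuclear partners 3 rose (20%, against 33.0% of all genes) and 3 fell (20%, against 23.5%). The co-repressor TLE3 (1.53 ± 0.30) rose, as did CTNNBIP1, a protein that keeps beta-catenin from TCF factors (0.81 ± 0.31), and, at 5.10 CPM in corpuscles against 0.395 CPM in skin, HNF4A (3.68 ± 0.57). The coactivators BCL9 (-2.46 ± 0.35) and PYGO2 (-2.68 ± 0.36) fell, with SOX17 (-1.25 ± 0.51). The CTNNBIP1 call was lost without any library other than corpuscles 4 and 5 and skin 3 (adjusted p-values of 0.053 to 0.102). That of SOX17 was lost without any library other than corpuscle 4 (0.0599 to 0.0928), without which it was -2.04. BCL9 averaged 12.5 ± 6.02 CPM in corpuscles against 68.7 ± 10.2 CPM in skin. Among 21 genes of planar polarity and the calcium branch 5 rose (23.8%, against 33.0% of all genes) and 5 fell (23.8%, against 23.5%). DAAM1 (1.50 ± 0.31), CAMK2G (0.84 ± 0.23) and PLCB1 (0.63 ± 0.22) were higher, as was CAMK2A at 7.29 CPM in corpuscles against 0.289 CPM in skin (4.64 ± 0.56). CAMK2A (330 reads in all corpuscles, 26 in all skin) and HNF4A (245 and 36) passed the filter on low counts only through corpuscle libraries. The filter thus fixed their direction, as for WNT9B. Counts of pathway genes that rose, here and above, include both. SCRIB (-2.04 ± 0.26), PRICKLE2 (-1.77 ± 0.46) and PLCB4 (-1.46 ± 0.27) were lower. The PLCB1 call was lost without corpuscle 1, corpuscle 2 or skin 2 (adjusted p-values of 0.0515 to 0.0731).

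Of 16 known target genes 8 rose (50%, against 33.0% of all genes) and 4 fell (25%, against 23.5%). ID2, a regulator that many pathways besides Wnt induce, averaged 1576 ± 459.5 CPM in corpuscles against 143 ± 20.1 CPM in skin (3.46 ± 0.22, adjusted p = 3.85e-08). SP5, among the more specific targets, averaged 14.6 ± 15.1 CPM in corpuscles against 5.06 ± 2.04 CPM in skin (1.52 ± 0.53, adjusted p = 0.0239). It was at 0.64 (adjusted p = 0.163) without corpuscle 4, and its adjusted p was 0.0513 without skin 1 and 0.0522 without skin 4. CD44 rose by 1.50 ± 0.30. Named after their values were seen, RNF43 rose (2.07 ± 0.42), NOTUM fell (-1.10 ± 0.35) and ZNRF3 did not pass (-0.14 ± 0.37). JAG1 (-1.69 ± 0.24), TWIST1 (-1.64 ± 0.41) and DACT1 (-1.51 ± 0.26) fell, DACT1 and NKD1 being on this list and on that of the destruction complex.

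Corpuscle libraries varied more among themselves than skin libraries did. Over the 34 members that reached 10 CPM in either tissue, the median coefficient of variation was 56.4% in corpuscles and 15.3% in skin, and it was larger in corpuscles for 32 of the 34. Of these 34 members 6 were called higher and 15 lower. Of the 18 under this level, with WNT8A and DKK1 among them untested, 4 were called higher and 3 lower. Over all genes tested, at any level, 33.0% were called higher and 23.5% lower. The shares of all genes at these levels were not computed. Of the 28 called members, 13 kept their call under every alternative that gave a value, among them WNT11, WNT7B, FZD4, LRP5, RSPO1, RSPO3, LGR5, SFRP1, SFRP2 and TCF7L2. The 13 include WNT9B, whose direction the filter fixed. Of the 22 members that did not pass, some passed when a library was left out. These were AXIN1 (-0.90), FZD9 (-1.02), SFRP5 (0.97), FZD10 (1.29) and WNT9A (0.93) without corpuscle 2, and ROR2 (-0.63) and WNT9A (0.91) without corpuscle 3. They were also WNT2 (1.14) without corpuscle 1 or skin 4, WNT16 (1.46) without skin 4, FZD10 (1.37) without skin 1 and AXIN2 (-0.56) without corpuscle 4, with adjusted p-values of 0.0102 to 0.0486.

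The authors' deposited table calls 31 members at the same threshold, which include all 28 in the same direction and add AXIN2, WNT8A and DKK1. That table rests on the same counts and is no independent check. The share of all genes that it calls was not computed. With no filter on low counts, the edgeR fit called 12 members higher and 19 lower, beside 6185 and 3744 of all genes.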

How the data were processed

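Per the labels, RNA of duck Meissner corpuscles (n = 5) and bill skin (n = 6) was sequenced. The authors deposited raw read counts per gene, made with Trimmomatic 0.39, CASAVA 1.8.2, Subread 2.0.1 (featureCounts), STAR 2.7.7a, R 4.2.1 and edgeR 3.38.4, per the submitters' processing notes, which give no roles. Genome build, annotation and strand setting are not given in the sources used here. The deposited normalized signal, the FPKM values and the authors' log2 fold changes with p-values and false discovery rates were used for levels between genes and for comparison with the fit.

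All genes were tested in R 4.3.3 with edgeR 4.0.16 (filterByExpr, TMM scaling, robust quasi-likelihood test of corpuscle against skin), with Benjamini-Hochberg adjustment over 14638 genes at 0.05. CPM values use TMM-scaled libraries. A floor of 3 counts equals 0.266 to 0.474 CPM in corpuscles and 0.135 to 0.227 CPM in skin, and covers counting error only. The fit was tested on simulated data. DESeq2 1.42.0, limma 3.58.1 (voom), other scalings and filters, thinning, a replicate block and the omission of libraries were alternatives. Figures used matplotlib 3.10.9.

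Members and gene lists were chosen with earlier results of these data known. Library values are given for called members at 10 CPM or more and for the most abundant member of each role, and for each further list up to 3 called genes per direction at 10 CPM or more in either tissue are named by fold. The library values of WNT9A, WNT2B and FZD3 were added after they were seen. A p above the threshold does not show that the tissues are alike. Libraries come from 3 skin isolations that the labels do not tie to them, and p-values therefore cover no more than the spread among these libraries, which may be in part technical. No 2 libraries of a tissue agreed within counting error (chi-square per degree of freedom 11.6 or more). Sequences and coordinates were not used here.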

Additional observations from a re-analysis of the deposited data

Results flagged for a closer look

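A library that lay far from the others of its tissue was looked for in 101 groups (members by tissue with enough reads), and 7 such values were found. Chance flags about 1 in 20 groups, or 5.05 here. LGR5 was at 217 CPM in corpuscle 5, against 77.2 to 107 CPM in the other corpuscles, and RSPO1 in the same library was at 4.23 CPM, against 1.86 to 2.21 CPM. DKK2 was at 163 CPM in corpuscle 3, against 46.9 to 69.4 CPM in the others. WNT3A was at 15.2 CPM in corpuscle 4, against 2.54 to 4.32 CPM. WNT7B was at 22.0 CPM in corpuscle 1, against 9.82 to 12.9 CPM. In skin 1, WNT6 was at 3.42 CPM, against 0.331 to 1.06 CPM in the other skin libraries, and FZD10 was at 7.95 CPM, against 2.80 to 4.49 CPM. The LGR5, RSPO1, WNT7B and WNT6 calls held without the library concerned, as did that of DKK2.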

How the results depend on the processing

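Of 28 called members, 13 kept their call under every alternative that gave a value, 9 (ROR1, FZD6, FZD8, WNT1, WNT5B, LGR4, DKK2, DKK3, TCF7) lost it only within corpuscles 4 and 5 and skin 5 and 6, and 6 (FZD2, WNT4, WNT5A, WNT7A, RSPO4, LGR6) lost it under other alternatives. WNT9B, whose direction the filter on low counts fixed, is among the 13. Of 22 members that did not pass, 12 passed under at least 1 alternative, FZD1 among them (adjusted p = 0.0352 with upper-quartile scaling). The cause was not tested. Corpuscles 4 and 5 and skin 5 and 6 were set apart on these same data, and a fit within them holds fewer libraries of each tissue.

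Within those 4 libraries 1514 of all genes were lower (71.4% of calls were higher, against 58.4%), 11 members were higher and 8 lower, and 14 other pathway genes were higher and 12 lower. Leaving out each library gave 4428 to 5108 genes higher and 3088 to 3903 lower, 9 to 13 members higher and 16 to 19 lower, and 21 to 28 other pathway genes higher and 23 to 32 lower.

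Signs of some log2 fold changes turned. Without corpuscles 4 and 5 and skin 5 and 6 these were WNT5A (-0.37), WNT3A (-0.38), WNT9A (-0.10), LEF1 (-0.46), WNT10A (-0.56) and TCF7L1 (-0.31). Within those libraries they were FZD3 (-1.87), WNT8B (0.26), FZD7 (0.13), WNT2B (-0.087) and CTNNBIP1 (-0.0008). With limma-voom they were LEF1 (-0.33), TCF7L1 (-0.73) and WNT10A (-0.0024). WNT10A was -0.061 with no filter, and WNT8B was 0.063 with upper-quartile scaling and 0.0195 after thinning. Leaving out each library gave ranges of -0.073 to 0.29 (LRP6), -0.11 to 0.84 (WNT3A), -0.036 to 0.73 (FZD3), -0.19 to 0.38 (LEF1), -0.40 to 0.10 (WNT8B), -0.18 to 0.21 (WNT10A) and -0.54 to 0.44 (TCF7L1).

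The labels number replicates in both tissues, but same-numbered libraries did not deviate together (correlations of -0.178 to 0.182 over 5 pairs). With the replicate block 9 members were higher and 15 lower, beside 3790 and 3327 of all genes (53.3% of calls higher). The signs of FZD3 (-0.25), LEF1 (-0.0096) and TCF7L1 (-0.39) turned. Low-level members rest on few reads, WNT9B on 12 in all skin, although skin libraries were the deeper ones. Corpuscle libraries detected 16252 to 16379 genes and skin libraries 14825 to 15148, and tissue and kit cannot be told apart there either.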

Other observations

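Within skin, several members differed between skin 5 and 6 and the other 4 libraries, which was noticed after their values were seen and was not tested. WNT2B reached 29.6 and 30.0 CPM in skin 5 and 6, and the other skin libraries held 6.76 to 13.0 CPM. LGR5 reached 44.1 and 45.7 CPM there, against 13.2 to 17.1 CPM elsewhere in skin. SFRP2 reached 280.3 and 369 CPM there, against 107 to 182 CPM. WNT2B also varied in corpuscles, at 32.2 and 40.1 CPM in corpuscles 2 and 5 and 10.4 to 14.4 CPM in the other 3.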
